A study of Mus musculus with 12 samples.

Results

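Transcripts of 39 genes of red blood cell development and heme synthesis were followed in RNA from splenic natural killer (NK) cell preparations of C57BL/6 mice. The genes were chosen by symbol from a list of 40, and they are 39 of the 50643 genes in the count table; Ahsp was not analysed here. They comprise 4 adult globins, 8 genes of heme synthesis and its iron supply, 11 genes of the red cell membrane and its skeleton, 7 regulators and receptors, and 9 other genes of erythroid cells. The 12 libraries form 4 groups of 3: Mirc11-/- mice challenged with Listeria, unchallenged Mirc11-/- mice, challenged wild-type mice and unchallenged wild-type mice. The deleted locus, Mirc11, is a cluster of 3 microRNA genes whose products are miR-23a, miR-27a and miR-24. All groups share the strain and the purification, a negative selection that removes labelled non-NK cells and leaves the NK cells untouched, so that unlabelled cells of other kinds can remain. The sex and age of the mice, the dose and time of the challenge, and whether the deletion is limited to some cell types are not stated.

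In adult mice the spleen makes red cells beside the bone marrow, and more of them under infection or anaemia. Committed precursors switch on globin and heme genes under GATA1, TAL1 and KLF1, answer erythropoietin through its receptor, assemble a membrane of band 3, ankyrin, protein 4.2 and spectrin, and then lose their nucleus. The resulting reticulocyte keeps globin and heme synthesis transcripts for a while, and red cells and reticulocytes can stay in a negatively selected preparation. NK cells are not known to make globin, whereas some of the other genes, such as Epb41 and Car2, are made in many cell types.

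The 4 promoters shown are those of a globin, the erythroid heme enzyme, a membrane gene and a regulator, and they show the motifs counted further on. Each is given 5′ to 3′ on the gene's own strand as the 250 bases before the RefSeq start in GRCm38.p6, from the windows chr7:103827879-103828178 (minus strand), chrX:150547167-150547466, chr4:134864286-134864585 and chr8:84901732-84902031 (plus strand), which also hold 50 bases after the start. Capitals mark the GATA motif (AGATAA or TGATAA) and the CACCC motif bound by KLF factors (CCNCNCCC), on either strand.
Hbb-bs: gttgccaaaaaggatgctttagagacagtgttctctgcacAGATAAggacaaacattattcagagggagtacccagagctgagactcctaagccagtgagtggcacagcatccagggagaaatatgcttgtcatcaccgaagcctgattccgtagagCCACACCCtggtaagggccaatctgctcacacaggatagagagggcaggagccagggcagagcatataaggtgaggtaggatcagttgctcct
Alas2: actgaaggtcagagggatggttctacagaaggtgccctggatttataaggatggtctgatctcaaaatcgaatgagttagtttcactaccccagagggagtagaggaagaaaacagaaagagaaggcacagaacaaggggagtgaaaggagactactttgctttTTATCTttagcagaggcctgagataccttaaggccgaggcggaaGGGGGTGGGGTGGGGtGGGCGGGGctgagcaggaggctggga
Rhd: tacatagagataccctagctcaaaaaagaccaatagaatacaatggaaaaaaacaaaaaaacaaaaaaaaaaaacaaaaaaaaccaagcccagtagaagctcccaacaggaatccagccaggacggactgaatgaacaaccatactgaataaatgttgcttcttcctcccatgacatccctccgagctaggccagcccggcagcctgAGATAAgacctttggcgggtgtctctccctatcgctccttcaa
Klf1: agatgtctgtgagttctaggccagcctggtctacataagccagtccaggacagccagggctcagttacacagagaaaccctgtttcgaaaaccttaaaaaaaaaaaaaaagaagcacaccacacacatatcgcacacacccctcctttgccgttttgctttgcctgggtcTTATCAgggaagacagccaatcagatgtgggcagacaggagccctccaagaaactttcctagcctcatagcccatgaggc
Counted from the start, the GATA motif lies at -210 in Hbb-bs, -86 in Alas2, -43 in Rhd and -80 in Klf1. The CACCC motif lies at -93 in Hbb-bs, and Alas2 has 4 overlapping or neighbouring matches. In Rhd the CACCC match lies just after the start, outside the bases shown, and the Klf1 window holds none.

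The 3 mature microRNAs of the deleted cluster are shown because their seeds, bases 2 to 8, in capitals, define the sites searched in the 3′ UTRs. They lie on the plus strand of mouse chromosome 8 in GRCm38.p6, at chr8:84208563-84208583, chr8:84208727-84208747 and chr8:84208875-84208896, and their sequences are RefSeq's.
mmu-miR-23a-3p: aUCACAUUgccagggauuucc
mmu-miR-27a-3p: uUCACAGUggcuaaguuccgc
mmu-miR-24-3p: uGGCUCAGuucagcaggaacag
The seeds of the 3 microRNAs all differ from each other.

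Library totals ran from 17624530 to 23665679 counts, so that 1 count was worth 0.0423 to 0.0567 CPM. A CPM is a gene's count per 1000000 counts of its library, and a count of 0 allows up to 3 counts, or 0.127 to 0.17 CPM. The hairpin genes Mir23a, Mir27a and Mir24-2 had 0 counts in all 12 libraries, so they do not check the genotype. Gm26532, a noncoding gene that begins at the last bases of Mir24-2, had 0.887, 0.984 and 2.7 CPM in challenged Mirc11-/-, 0.113 to 0.498 CPM in unchallenged Mirc11-/-, 2.34 to 4.27 CPM in challenged wild-type and 2.35 to 4.88 CPM in unchallenged wild-type libraries. Replicate 3 of challenged Mirc11-/- thus lay inside the wild-type range. The summed Y-linked transcripts stood at 122 to 361 CPM in the 6 Mirc11-/- libraries, at 1.12 to 1.69 CPM in challenged wild-type, and at 2.97, 3.27 and 117 CPM in unchallenged wild-type libraries, where 117 CPM belongs to replicate 4, which also had 1198 CPM of Xist. Unchallenged Mirc11-/- had 0.362 to 1.08 CPM of Xist, against 526 to 1027 CPM in challenged Mirc11-/- and 1154 to 2025 CPM in wild-type libraries. Genotype and these sex-linked transcripts therefore cannot be told apart, and in the knockout neither can challenge and Xist. Among NK markers Ncr1 had 565 to 712 CPM in challenged and 828 to 849 CPM in unchallenged Mirc11-/- libraries. It had 182 to 206 CPM in challenged and 788 to 880 CPM in unchallenged wild-type libraries. Of the 9 NK markers 7 fell and 1 rose with challenge in wild-type mice, where 30.9% of all genes fell and 32.4% rose. In Mirc11-/- mice 8 of the 9 fell and none rose, where 11.5% of all genes fell and 15.6% rose. Prf1 had 889 to 913 CPM in challenged and 576 to 727 CPM in unchallenged wild-type libraries. Gzma had 1571 to 1671 and 1608 to 1886 CPM there.

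The 4 globins took 2.41, 1.92 and 2.39% of all counts in challenged Mirc11-/- libraries and 3.53, 3.71 and 3.98% in unchallenged Mirc11-/- libraries. In wild-type they took 0.169, 0.227 and 0.195% in challenged and 1.13, 1.32 and 1.18% in unchallenged libraries. No group overlapped another: unchallenged Mirc11-/- was highest, and challenged wild-type lowest. The other 35 genes together took 0.300 to 0.383% in challenged Mirc11-/-, 0.436 to 0.457% in unchallenged Mirc11-/-, 0.118 to 0.125% in challenged wild-type and 0.164 to 0.195% in unchallenged wild-type libraries, in the same order. In bulk RNA, fewer erythroid cells and less RNA per erythroid cell cannot be told apart, and this applies to every level given here.

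**Figure D1:**
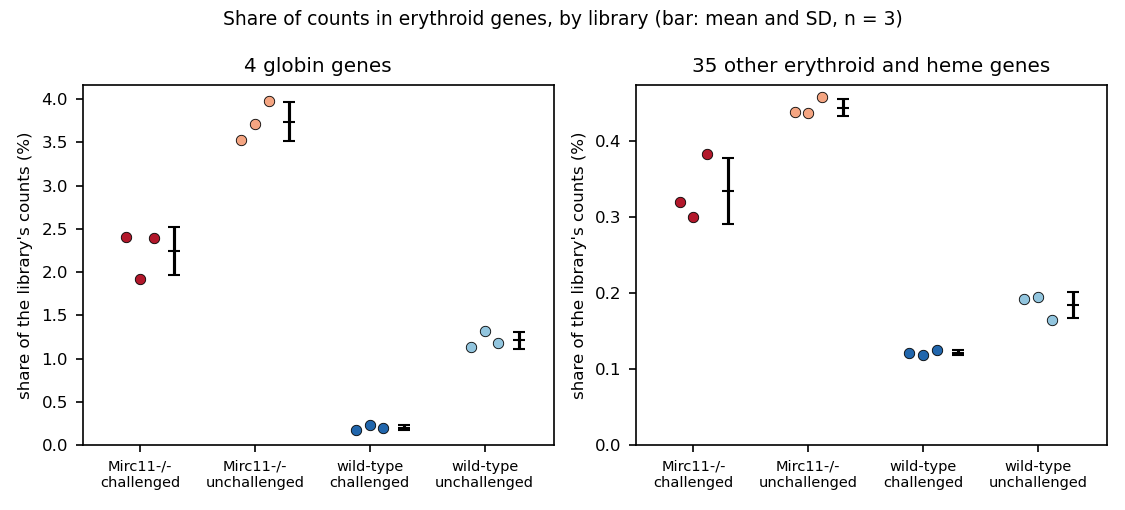
Share of each library's counts (%) in the 4 globin genes (left) and the other 35 erythroid and heme genes (right). Points are libraries, and the bars beside them give the mean and SD of 3 libraries per group. The globin share is 0.169 to 0.227% in challenged wild-type and 3.53 to 3.98% in unchallenged Mirc11-/- libraries.

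Per kilobase of exon, the globins led in every group. In unchallenged Mirc11-/- libraries Hbb-bs had 19203 CPM per kb, Hba-a2 14887, Hba-a1 11450 and Hbb-bt 4912 CPM per kb, followed by Alas2 at 249 and Slc4a1 at 149 CPM per kb. The lowest were Tfr2 at 4.17, Add2 at 3.61 and Sox6 at 2.29 CPM per kb. In challenged wild-type libraries the order below the globins was different: Car1 stood at 89.9, Car2 at 80.4 and Alad at 21.8 CPM per kb, all above Alas2 at 11.7 CPM per kb, while Slc4a1 stood at 0.458 and Btnl10 at 0.0244 CPM per kb.

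Challenge lowered a large share of the erythroid genes in both genotypes, and far more deeply in wild-type. All 39 genes were measured well enough to be tested, among 16694 genes in the fit. In Mirc11-/- mice 24 of the 39 fell after challenge, none rose and 15 were not called (edgeR quasi-likelihood test, adjusted p below 0.05), while over all tested genes 11.5% fell and 15.6% rose. The median log2 change of the 39 was -0.41, beside -0.01 for all genes, and their range was -0.77 to 0.30. In wild-type mice 25 fell, 5 rose and 9 were not called, while over all genes 30.9% fell and 32.4% rose. Here the median was -1.33, beside -0.01 for all genes, and the range was -6.02 to 0.80.

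The genes that fell in Mirc11-/- mice were the 4 globins, 4 of 8 heme synthesis genes, 9 of 11 membrane genes, 1 of 7 regulators and 6 of 9 other genes. In wild-type mice they were the 4 globins, 5 of 8 heme synthesis genes, 9 of 11 membrane genes, 1 of 7 regulators and 6 of 9 other genes. The 5 that rose in wild-type mice were Alad, Epb41, Rhag, Gata1 and Blvrb. Leaving out challenged Mirc11-/- replicate 2 left 16 genes lower in the knockout, leaving out unchallenged Mirc11-/- replicate 3 left 17, and leaving out challenged Mirc11-/- replicate 3 gave 29, against the 24 with all libraries. Over all genes these fits called 1367 of 17063, 1323 of 17068 and 1466 of 17093 lower there, against 1915 of 16694 with all libraries. Calls over all genes thus fell in each of the 3 fits. The calls of Ermap, Sptb and Dmtn in Mirc11-/- mice were lost without any 1 of the unchallenged Mirc11-/- libraries. They were lost too without challenged Mirc11-/- replicate 1, without replicate 2, and with no filter (adjusted p = 0.0852, 0.128 and 0.137). The calls of Rhag, Tspo2 and Btnl10 there were also lost when 1 or another library was left out.

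Mirc11-/- libraries held more of almost every erythroid transcript than wild-type ones. Without challenge 36 of the 39 genes were higher in Mirc11-/- than in wild-type and none was lower, with Gata1, Tfr2 and Car1 not called, while over all genes 6.64% were higher and 5.07% lower. With challenge 34 were higher and none lower, with Alad, Gata1, Tfr2, Car1 and Blvrb not called, while over all genes 22.7% were higher and 25.9% lower. The median log2 difference of the 39 was 1.42 without and 2.39 with challenge, beside -0.01 and 0.00 for all genes. For each of the 36 and of the 34 called genes the 3 Mirc11-/- libraries lay above the 3 wild-type ones. Genes called with 3 libraries per group tend to be separated in this way, and the share over all genes was not counted. This separation is therefore no further support. Without both libraries that stand apart (unchallenged wild-type replicate 4 and challenged Mirc11-/- replicate 3, chosen after the data were seen) the counts were 36 and 33 higher, and the challenge lowered 29 genes in Mirc11-/- mice and 25 in wild-type mice. Over all 17086 genes of that fit 916 and 3245 were higher. The challenge lowered 1335 of them in Mirc11-/- mice and 4686 in wild-type mice.

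The challenge response itself differed between the genotypes for 27 of the 39 genes. The log2 response was higher in Mirc11-/- than in wild-type for 23 genes and lower for 4, Alad, Epb41, Rhag and Blvrb, with 12 not called, while over all genes 16.7% were higher and 18.5% lower. All 4 globins, 3 of 8 heme synthesis genes, 9 of 11 membrane genes, 1 of 7 regulators and 6 of 9 other genes were among the 23, and each of them fell in wild-type mice. The 4 comparisons share libraries, so their values are set side by side and not counted as separate support. Leaving out challenged Mirc11-/- replicate 3 raised the count of lower responses to 7, by adding Klf1, Gata1 and Car2. Over all genes that fit gave 2749 of 17093 lower responses, against 3085 of 16694 with all libraries.

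**Figure D2:**
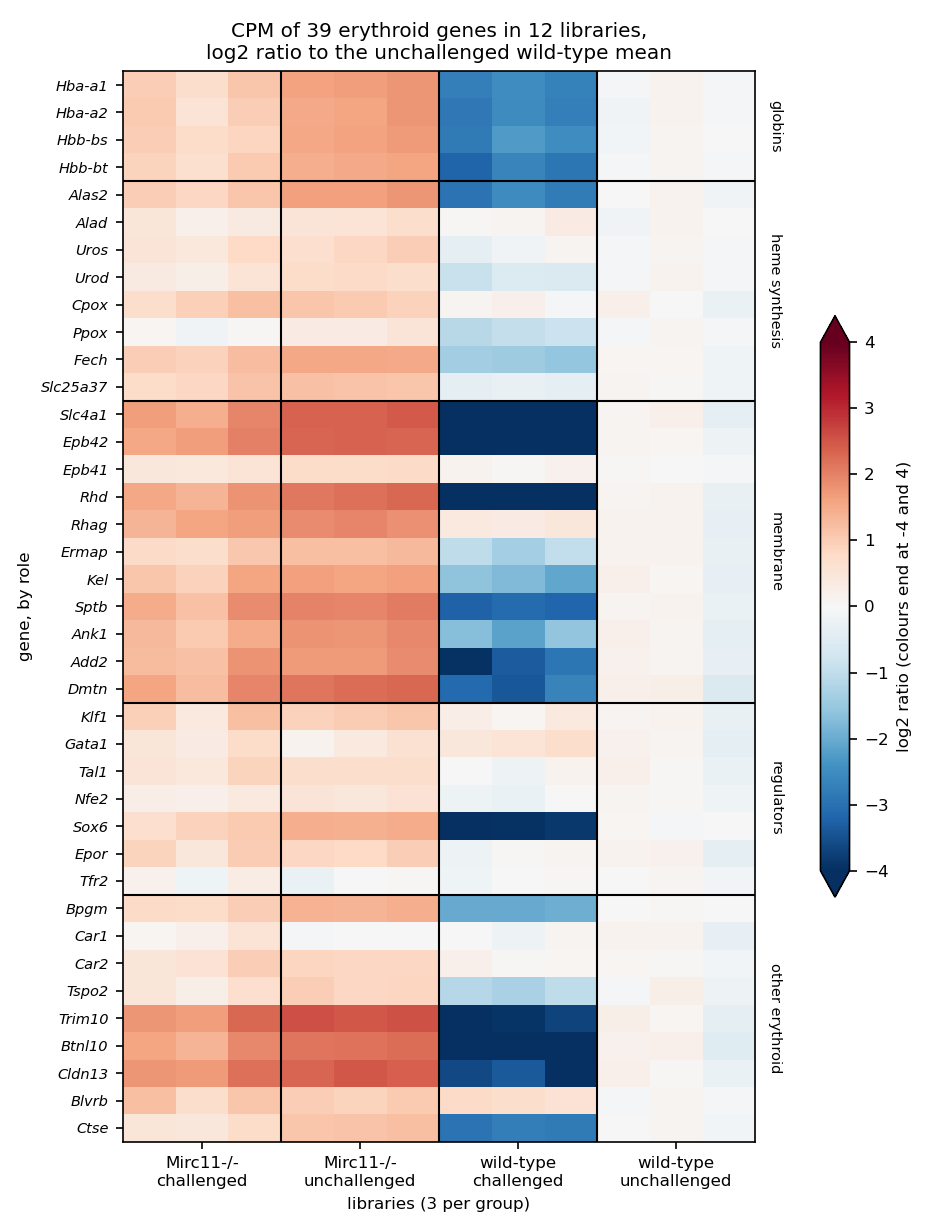
CPM of each of the 39 genes (rows, by role) in each of the 12 libraries (columns, 3 per group), as the log2 ratio to the gene's mean in unchallenged wild-type libraries; red is higher and blue lower, and colours end at -4 and 4. In challenged wild-type libraries most membrane genes are dark blue while Rhag, Gata1 and Blvrb are pale red, and in Mirc11-/- libraries almost every row is red.

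The globins, the oxygen carriers, changed together. Hbb-bs, an adult beta-globin of this strain (chr7:103826534-103828096 in GRCm38, as are all gene positions here), had 9496, 7918 and 8735 CPM in challenged Mirc11-/-, 13947, 14775 and 15521 CPM in unchallenged Mirc11-/-, 681, 995 and 866 CPM in challenged wild-type and 4465, 5195 and 4766 CPM in unchallenged wild-type libraries. The 4 groups did not overlap. Hba-a1, an adult alpha-globin (chr11:32283511-32284465), had 5733, 4650 and 6244 CPM in challenged Mirc11-/- against 8823, 9209 and 9859 CPM in unchallenged Mirc11-/-, and 434, 514 and 442 CPM in challenged wild-type against 2725, 3171 and 2749 CPM in unchallenged wild-type libraries, again without overlap. Hba-a1 and Hba-a2, and Hbb-bs and Hbb-bt, are near-identical copies whose reads may be divided between them with error. The sums do not depend on that division.

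In Mirc11-/- mice the log2 change with challenge was -0.77 ± 0.12 for Hbb-bs (SE, edgeR adjusted p = 0.000164), -0.75 ± 0.11 for Hba-a1, -0.75 ± 0.13 for Hba-a2 and -0.66 ± 0.12 for Hbb-bt. In wild-type mice the changes were -2.40 ± 0.12 for Hbb-bs (adjusted p = 1.91e-10), -2.53 ± 0.11 for Hba-a1, -2.59 ± 0.14 for Hba-a2 and -2.79 ± 0.13 for Hbb-bt. Between genotypes, the 4 globins were higher in Mirc11-/- by 1.53 to 1.71 on the log2 scale without challenge and by 3.27 to 3.66 with challenge. The response to challenge differed by 1.63 ± 0.16 for Hbb-bs (adjusted p = 2.41e-06), 1.78 ± 0.15 for Hba-a1 and 2.13 ± 0.17 for Hbb-bt.

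The balance between the chains stayed within a narrow range. The ratio of alpha to beta counts was 0.95 to 1.13 in challenged Mirc11-/-, 1.04 to 1.08 in unchallenged Mirc11-/-, 0.90 to 1.08 in challenged wild-type and 0.99 to 1.04 in unchallenged wild-type libraries, so the groups overlapped. The ratio of Hbb-bt, the second adult beta-globin, to Hbb-bs was 0.234 to 0.284 in challenged Mirc11-/-, 0.231 to 0.239 in unchallenged Mirc11-/-, 0.187 to 0.196 in challenged wild-type and 0.247 to 0.259 in unchallenged wild-type libraries. The challenged wild-type libraries lay below all others in this ratio, which depends on how reads of the copies were divided.

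Of the heme genes, the enzymes of the first and last steps had the largest falls in both genotypes. Alas2, the erythroid and rate-limiting enzyme of the pathway (chrX:150547375-150570638), had 367, 330 and 400 CPM in challenged Mirc11-/-, 586, 577 and 630 CPM in unchallenged Mirc11-/-, 24.1, 32.9 and 27.2 CPM in challenged wild-type and 186, 204 and 171 CPM in unchallenged wild-type libraries, with no overlap between groups. Its log2 change with challenge was -0.72 ± 0.10 in Mirc11-/- mice (adjusted p = 9.05e-05) and -2.63 ± 0.11 in wild-type mice (adjusted p = 2.64e-11), and these responses differed by 1.91 ± 0.15 (adjusted p = 1.96e-07). Fech, ferrochelatase, which inserts the iron at the last step, averaged 115 ± 13 CPM in challenged and 161 ± 2.3 CPM in unchallenged Mirc11-/- libraries, and 20.5 ± 1.2 CPM in challenged and 55.6 ± 5.4 CPM in unchallenged wild-type libraries (SD, n = 3 each). It changed by -0.50 ± 0.09 in Mirc11-/- mice and by -1.33 ± 0.09 in wild-type mice, with a difference between the responses of 0.84 ± 0.13 (adjusted p = 9.91e-05).

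Ppox, the enzyme before Fech, fell in both genotypes, by 0.41 ± 0.09 in Mirc11-/- and by 0.86 ± 0.09 in wild-type mice on the log2 scale, and its responses differed by 0.46 ± 0.13 (adjusted p = 0.0107). Urod, uroporphyrinogen decarboxylase, averaged 59.7 ± 6.6 CPM in challenged and 76.1 ± 1.1 CPM in unchallenged Mirc11-/- libraries, and 28.9 ± 3.9 CPM in challenged and 45.9 ± 3.9 CPM in unchallenged wild-type libraries. Its fall in Mirc11-/- mice (-0.36 ± 0.10, adjusted p = 0.0145) was not called without challenged Mirc11-/- replicate 2 (adjusted p = 0.0637) or unchallenged Mirc11-/- replicate 3 (adjusted p = 0.0521). Alad, the second enzyme of the pathway, had 51.3, 41.7 and 47.2 CPM in challenged Mirc11-/- against 51.7, 53.7 and 58.7 CPM in unchallenged Mirc11-/-, and 37.2, 39.3 and 45.9 CPM in challenged wild-type against 32.7, 40.4 and 36.2 CPM in unchallenged wild-type libraries. The wild-type groups of Alad overlapped, and its call in wild-type mice was lost under upper-quartile scaling (adjusted p = 0.19) and without any 1 of unchallenged wild-type replicate 2 (adjusted p = 0.157), unchallenged wild-type replicate 4 (0.0797), challenged wild-type replicate 2 (0.05) or challenged wild-type replicate 3 (0.176). The difference between its responses was not called without both libraries that stand apart (adjusted p = 0.0517).

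Uros and Cpox, the enzymes next to Urod in the pathway, were not called in response to challenge in either genotype. Cpox averaged 67.0 ± 12 CPM in challenged and 70.1 ± 5.1 CPM in unchallenged Mirc11-/- libraries, and 36.4 ± 2.9 CPM in challenged and 34.3 ± 5.5 CPM in unchallenged wild-type libraries. Slc25a37, mitoferrin-1, which carries iron into mitochondria, averaged 264 ± 41 CPM in challenged and 308 ± 7.2 CPM in unchallenged Mirc11-/- libraries, and 111 ± 2.2 CPM in challenged and 140 ± 14 CPM in unchallenged wild-type libraries; its call in wild-type mice was lost in 12 of the 21 alternative fits. All 8 heme genes were higher in Mirc11-/- than in wild-type mice without challenge, led by Alas2 (log2 1.69 ± 0.10), Fech (1.55 ± 0.09), Slc25a37 (1.15 ± 0.10) and Cpox (1.05 ± 0.13), and 7 of the 8 were higher with challenge. Uros and Ppox overlap Bccip and B4galt3 on the opposite strand, which are expressed at 41.7 and 40.8 CPM over all libraries, and no strand setting of the counting is stated, so part of their counts may belong to the neighbours.

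The membrane genes included falls deeper than those of the globins, and also rises. Slc4a1, the anion exchanger band 3 and the major protein of the red cell membrane (chr11:102348824-102366203), had 442, 377 and 535 CPM in challenged Mirc11-/-, 711, 714 and 763 CPM in unchallenged Mirc11-/-, 1.95, 2.89 and 1.88 CPM in challenged wild-type and 148, 158 and 108 CPM in unchallenged wild-type libraries. The 4 groups did not overlap, and the highest challenged wild-type library, at 2.89 CPM, lay far below the lowest of any other group, at 108 CPM. Its log2 change was -0.70 ± 0.15 in Mirc11-/- mice (adjusted p = 0.00508) and -5.84 ± 0.22 in wild-type mice (adjusted p = 3.4e-10), and the responses differed by 5.14 ± 0.27 (adjusted p = 7.46e-08).

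Rhd, the polypeptide of the Rhesus complex (chr4:134864536-134896172), had 31.4, 27.4 and 36.8 CPM in challenged Mirc11-/- against 46.6, 49.7 and 52.1 CPM in unchallenged Mirc11-/-, and 0.173, 0.355 and 0.224 CPM in challenged wild-type against 11.5, 11.8 and 8.74 CPM in unchallenged wild-type libraries. Rhag, its partner glycoprotein (chr17:40811126-40840754), had 23.2, 27.0 and 28.8 CPM in challenged Mirc11-/- against 33.6, 35.5 and 32.5 CPM in unchallenged Mirc11-/-, but 12, 11.5 and 12.5 CPM in challenged wild-type against 10.1, 10.1 and 7.21 CPM in unchallenged wild-type libraries. For both genes neither pair of groups overlapped. In wild-type mice Rhd fell by 5.28 ± 0.24 on the log2 scale while Rhag rose. The response of Rhd was higher in Mirc11-/- than in wild-type by 4.63 ± 0.29 (adjusted p = 2.59e-08), and that of Rhag was lower. The ratio of Rhag to Rhd counts was 0.740 to 0.985 in challenged Mirc11-/-, 0.624 to 0.721 in unchallenged Mirc11-/-, 32.4 to 69.5 in challenged wild-type and 0.826 to 0.881 in unchallenged wild-type libraries. Rhd rests on 17 counts over the 3 challenged wild-type libraries, so the size and spread of the ratio there are imprecise.

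Epb42, protein 4.2, which ties band 3 to the skeleton, averaged 42.6 ± 7.3 CPM in challenged and 63.9 ± 0.92 CPM in unchallenged Mirc11-/- libraries, and 0.442 ± 0.12 CPM in challenged and 12.6 ± 1.4 CPM in unchallenged wild-type libraries (SD, n = 3 each). Its response differed between the genotypes by 4.12 ± 0.25 on the log2 scale (adjusted p = 1.66e-08). Of the spectrin skeleton, Sptb, beta-spectrin, averaged 88.2 ± 22 CPM in challenged and 122 ± 5.5 CPM in unchallenged Mirc11-/- libraries, and 3.4 ± 0.18 CPM in challenged and 30.3 ± 4.4 CPM in unchallenged wild-type libraries. Ank1, the ankyrin that anchors spectrin to band 3, averaged 66.2 ± 9.8 CPM in challenged and 96.2 ± 4.8 CPM in unchallenged Mirc11-/- libraries, and 7.93 ± 1.5 CPM in challenged and 27.2 ± 5.1 CPM in unchallenged wild-type libraries. Sptb overlaps Plekhg3 on the opposite strand, which is expressed at 50.5 CPM over all libraries.

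Add2, beta-adducin, and Dmtn, dematin, which cap or bundle actin at the skeleton's junctions, both stood near 1 CPM in challenged wild-type libraries (0.693 to 1.43 and 0.889 to 1.48 CPM) and at 22.0 CPM or more in all Mirc11-/- libraries. The blood group genes Kel and Ermap fell in wild-type mice to 4.01 ± 0.65 and 21.5 ± 3.0 CPM in challenged libraries, against 13.9 ± 2.6 and 46.2 ± 7.7 CPM in unchallenged libraries. Epb41, protein 4.1, which joins spectrin and actin and is made in many cell types, averaged 381 ± 17 CPM in challenged and 462 ± 9.0 CPM in unchallenged Mirc11-/- libraries, and 299 ± 12 CPM in challenged and 275 ± 13 CPM in unchallenged wild-type libraries. Its small rise in wild-type mice was not called under upper-quartile scaling (adjusted p = 0.0862), and its responses differed with the sign opposite to that of the other skeleton genes.

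All 11 membrane genes were higher in Mirc11-/- than in wild-type mice in both treatments. Without challenge the differences with the smallest p were those of Epb42 (log2 2.36 ± 0.12), Rhd (2.23 ± 0.13), Rhag (1.91 ± 0.12) and Epb41 (0.77 ± 0.06), and with challenge those of Epb42 (6.48 ± 0.19), Rhd (6.87 ± 0.22), Slc4a1 (7.56 ± 0.23) and Sptb (4.6 ± 0.20).

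**Figure D3:**
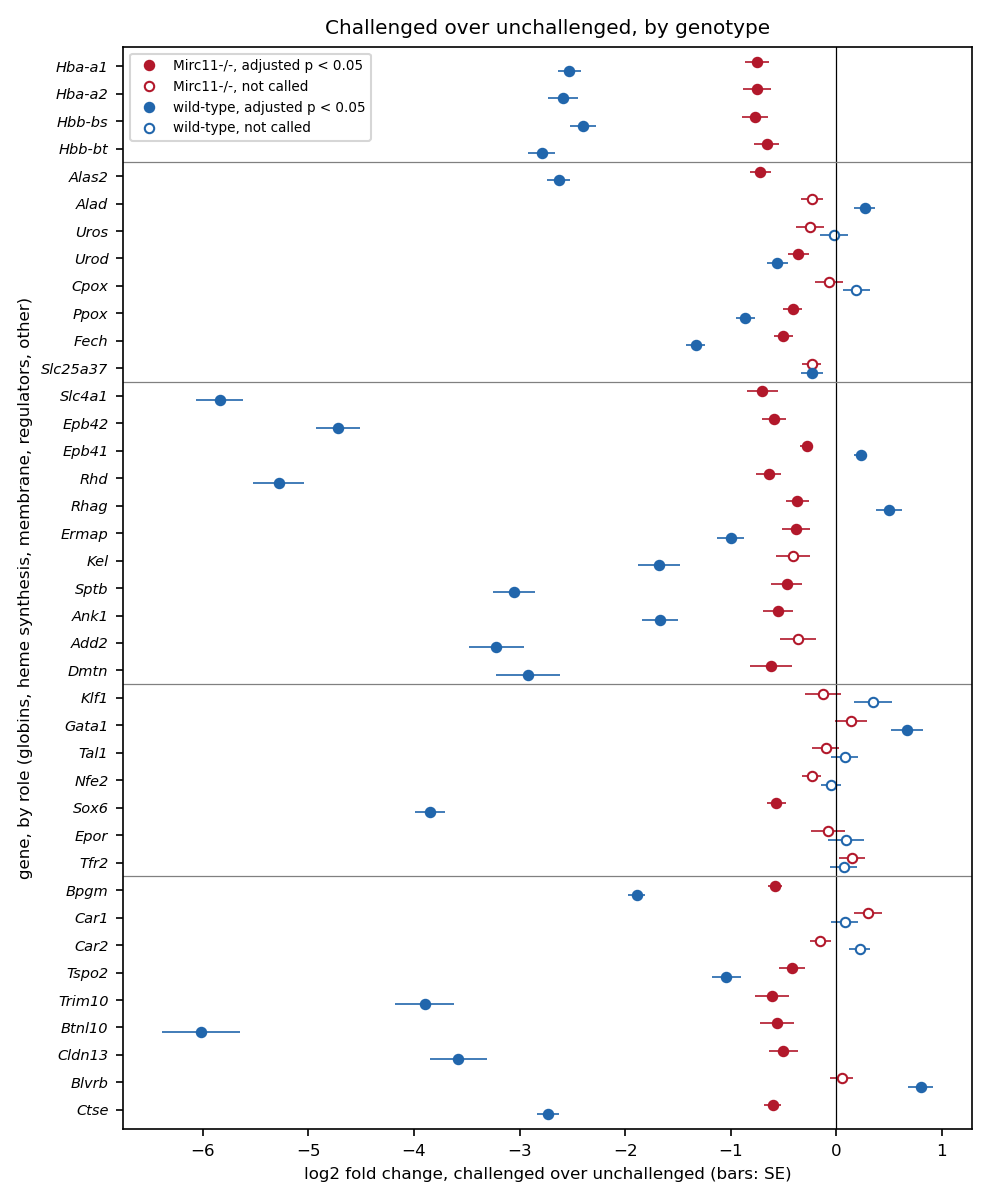
Log2 fold change of the 39 genes, challenged over unchallenged, in Mirc11-/- (red) and wild-type mice (blue), with SE bars; filled points passed adjusted p below 0.05. The Mirc11-/- points lie between -0.77 and 0.30, and the wild-type points spread from -6.02 to 0.80.

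Among the regulators, most did not follow the globins in their response to challenge. Gata1, the master transcription factor of red cell, megakaryocyte and mast cell lineages (chrX:7959260-7978071), had 26.3, 23.8 and 31.6 CPM in challenged Mirc11-/- against 20.8, 24.4 and 28.4 CPM in unchallenged Mirc11-/-, and 25.9, 27.3 and 30.3 CPM in challenged wild-type against 21.4, 20.5 and 14.6 CPM in unchallenged wild-type libraries. The knockout groups overlapped each other and the challenged wild-type group, and unchallenged wild-type had the lowest mean. Gata1 rose in wild-type mice by 0.67 ± 0.15 on the log2 scale (adjusted p = 0.00138). Its difference between the responses, -0.53, was not called with all libraries and was called without unchallenged wild-type replicate 2 (adjusted p = 0.0443), unchallenged Mirc11-/- replicate 2 (0.0342) or challenged Mirc11-/- replicate 3 (0.0282).

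Sox6, which in mice represses embryonic globin and promotes red cell maturation (chr7:115470872-116038796), was the only 1 of the 7 regulators that fell in either genotype. It had 19.8, 23.5 and 25.7 CPM in challenged Mirc11-/-, 33.8, 33.5 and 34.5 CPM in unchallenged Mirc11-/-, 0.736, 0.8 and 0.850 CPM in challenged wild-type and 13.1, 12 and 12.2 CPM in unchallenged wild-type libraries. No groups overlapped. Its log2 change was -0.57 ± 0.09 in Mirc11-/- (adjusted p = 0.000268) and -3.85 ± 0.14 in wild-type mice (adjusted p = 5.54e-12), and the responses differed by 3.28 ± 0.17 (adjusted p = 7.04e-09).

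Klf1, the activator of beta-globin and many membrane genes, averaged 28.3 ± 7.8 CPM in challenged and 30.8 ± 1.8 CPM in unchallenged Mirc11-/- libraries, and 18 ± 1.8 CPM in challenged and 15.2 ± 2.3 CPM in unchallenged wild-type libraries. Epor, the erythropoietin receptor, averaged 15.6 ± 3.1 and 16.4 ± 1.1 CPM in challenged and unchallenged Mirc11-/- libraries, and 8.87 ± 1.0 and 8.94 ± 1.7 CPM in challenged and unchallenged wild-type libraries. Tal1, the partner of GATA1 in its DNA-binding complex, averaged 50.3 ± 8.6 and 53.5 ± 0.48 CPM in challenged and unchallenged Mirc11-/- libraries, and 32.0 ± 3.8 and 32.7 ± 5.2 CPM in challenged and unchallenged wild-type libraries. Klf1, Tal1, Epor, the globin regulator Nfe2 and the iron sensor Tfr2 were not called after challenge in either genotype with all libraries. Klf1 was called higher in wild-type mice with only the groups compared (adjusted p = 0.0226) and without challenged Mirc11-/- replicate 2 (0.0157). Nfe2 was called lower in Mirc11-/- mice under upper-quartile scaling (adjusted p = 0.0287), without challenged Mirc11-/- replicate 3 (0.0475), and without both libraries that stand apart (0.0374).

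Klf1, Tal1, Nfe2, Sox6 and Epor were higher in Mirc11-/- than in wild-type mice in both treatments. Without challenge the log2 differences were 1.47 ± 0.10 for Sox6, 0.89 ± 0.16 for Epor, 0.73 ± 0.13 for Tal1 and 0.53 ± 0.09 for Nfe2. With challenge they were 4.75 ± 0.14 for Sox6, 0.72 ± 0.16 for Epor, 0.56 ± 0.13 for Tal1 and 0.35 ± 0.09 for Nfe2. The call of Klf1 with challenge was lost without any 1 of challenged wild-type replicate 1 (adjusted p = 0.0515), challenged wild-type replicate 2 (0.0733), challenged Mirc11-/- replicate 1 (0.0702) or challenged Mirc11-/- replicate 3 (0.0876).

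**Figure D4:**
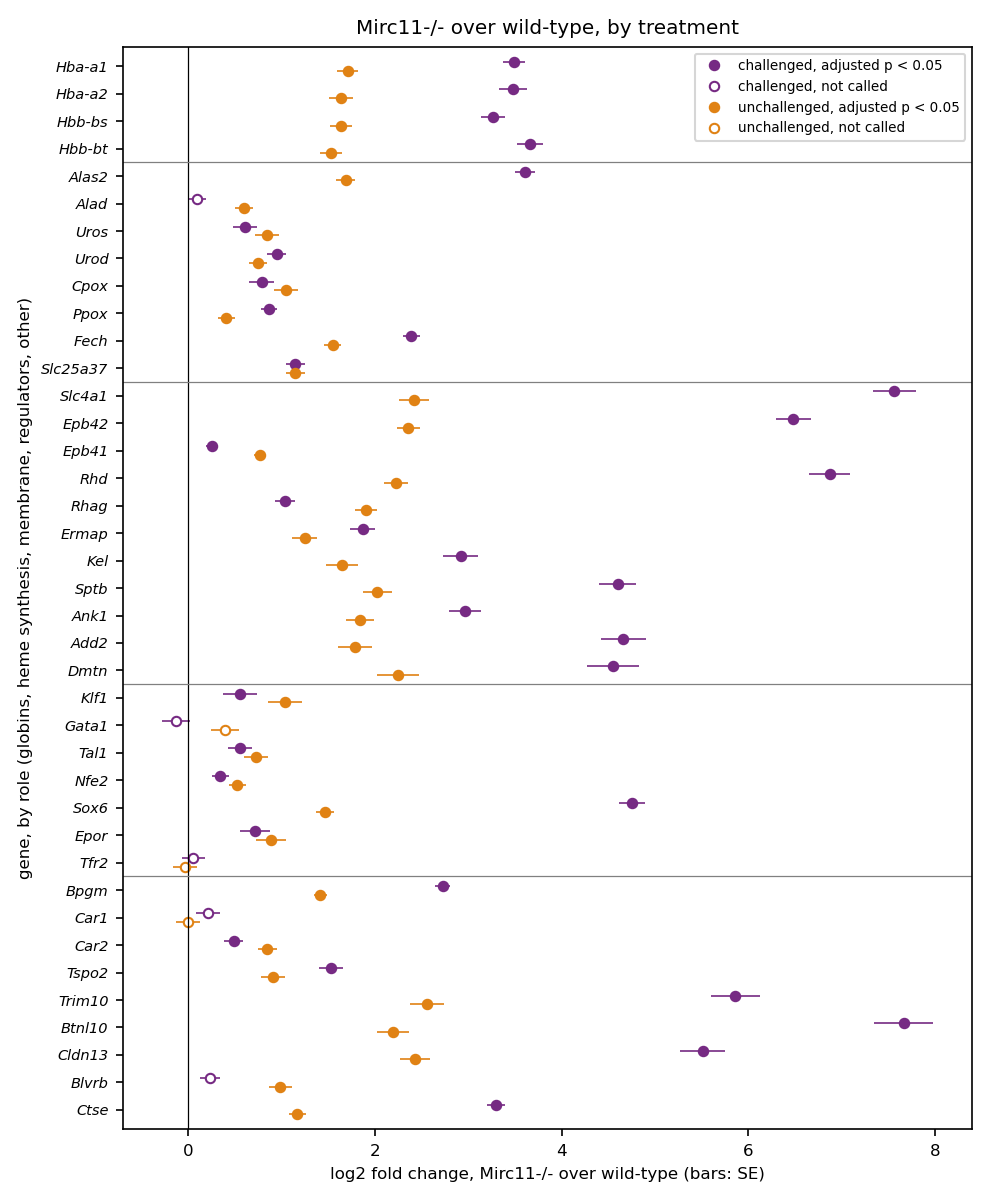
Log2 fold change of the 39 genes, Mirc11-/- over wild-type, in challenged (purple) and unchallenged mice (orange), with SE bars; filled points passed adjusted p below 0.05. Slc4a1 lies at 7.56 with challenge and 2.42 without, whereas Gata1 lies at -0.13 and 0.40, both not called.

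Of the other erythroid genes, Btnl10, a butyrophilin-like membrane protein (chr11:58917908-58927158), had the largest fall in wild-type mice. It had 25.5, 21.9 and 32.4 CPM in challenged Mirc11-/- against 37.7, 38.5 and 40.9 CPM in unchallenged Mirc11-/-, and 0.173, 0.133 and 0.0447 CPM in challenged wild-type against 9.77, 9.92 and 6.15 CPM in unchallenged wild-type libraries. The challenged wild-type value rests on 8 counts over 3 libraries. Its log2 change was -6.02 ± 0.37 in wild-type mice (adjusted p = 3.11e-09), and its responses differed by 5.46 ± 0.43 (adjusted p = 4.15e-07).

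Trim10, a TRIM-family protein of terminal erythroid cells, averaged 49.5 ± 12 CPM in challenged and 75.1 ± 2.2 CPM in unchallenged Mirc11-/- libraries, and 0.797 ± 0.21 CPM in challenged and 12.9 ± 2.8 CPM in unchallenged wild-type libraries. Cldn13, a claudin of mouse erythroid cells, averaged 13.9 ± 2.7 CPM in challenged and 19.5 ± 1.1 CPM in unchallenged Mirc11-/- libraries, and 0.279 ± 0.091 CPM in challenged and 3.68 ± 0.58 CPM in unchallenged wild-type libraries. The fall of Trim10 in Mirc11-/- mice was not called without challenged Mirc11-/- replicate 1 (adjusted p = 0.0605) or replicate 2 (0.0581). The fall of Cldn13 there was not called without challenged Mirc11-/- replicate 2 (adjusted p = 0.0711) or unchallenged Mirc11-/- replicate 3 (0.0718).

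Bpgm, the enzyme that makes 2,3-bisphosphoglycerate and so sets the oxygen affinity of haemoglobin, averaged 162 ± 16 CPM in challenged and 240 ± 9.2 CPM in unchallenged Mirc11-/- libraries, and 22.8 ± 0.60 CPM in challenged and 91.0 ± 2.0 CPM in unchallenged wild-type libraries. It fell by 0.58 ± 0.07 in Mirc11-/- and by 1.89 ± 0.08 in wild-type mice on the log2 scale, a difference of 1.31 ± 0.10 (adjusted p = 2.07e-07). Ctse, the aspartic protease cathepsin E, changed by -0.60 ± 0.08 in Mirc11-/- and -2.73 ± 0.10 in wild-type mice, a difference of 2.13 ± 0.13 (adjusted p = 1.89e-08). Tspo2, an erythroid cholesterol-binding protein, averaged 7.36 ± 0.67 CPM in challenged and 16.3 ± 2.6 CPM in unchallenged wild-type libraries.

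Blvrb, biliverdin reductase B, which acts on a product of heme breakdown, had 69.2, 48.5 and 64.6 CPM in challenged Mirc11-/- against 59.3, 54.9 and 61.4 CPM in unchallenged Mirc11-/-, and 50.7, 49.1 and 45.1 CPM in challenged wild-type against 28.5, 32.6 and 28.5 CPM in unchallenged wild-type libraries. The wild-type groups were apart and the knockout groups overlapped. The carbonic anhydrases Car1 and Car2, which convert carbon dioxide to bicarbonate, were not called after challenge in either genotype with all libraries. Car2 was called higher in wild-type mice with only the groups compared (adjusted p = 0.0114) and without challenged Mirc11-/- replicate 1 (0.0411) or replicate 3 (0.00732). It was called lower in Mirc11-/- mice without challenged Mirc11-/- replicate 3 (adjusted p = 0.00458), and both calls were also made without both libraries that stand apart (0.00462 in Mirc11-/- and 0.0438 in wild-type mice). Car1 averaged 140 ± 23 and 113 ± 3.4 CPM in challenged and unchallenged Mirc11-/- libraries, and 112 ± 12 and 114 ± 20 CPM in challenged and unchallenged wild-type libraries, with no call in any comparison, whereas Car2 was higher in Mirc11-/- in both treatments.

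Relative to the globins, the levels of many of these genes in challenged wild-type libraries differed from those in the other groups. Slc4a1 had 18.3 to 22.4 counts per 1000 globin counts in challenged Mirc11-/-, 19.2 to 20.1 in unchallenged Mirc11-/-, 0.961 to 1.27 in challenged wild-type and 9.13 to 13.1 in unchallenged wild-type libraries. Alas2 stayed at 15.2 to 17.2, 15.5 to 16.6, 13.9 to 14.5 and 14.4 to 16.5 per 1000 in the same order of groups. Gata1 had 1.09 to 1.32 per 1000 in challenged Mirc11-/-, 0.590 to 0.713 in unchallenged Mirc11-/-, 12 to 15.5 in challenged wild-type and 1.23 to 1.90 in unchallenged wild-type libraries.

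After challenge in wild-type mice the ratio of the group means per globin count, challenged over unchallenged, was above 2 for 20 of the 35 genes and below 0.5 for 7, with 8 between. The 7 were Btnl10 (0.0862), Slc4a1 (0.0993), Rhd (0.141), Epb42 (0.212), Trim10 (0.377), Sox6 (0.394) and Cldn13 (0.467), and the highest ratios were those of Blvrb (10.1), Gata1 (9.16) and Rhag (8.2). In Mirc11-/- mice the ratio was above 2 for 1 gene, Car1 (2.08), and below 0.5 for none. The log2 falls of 10 genes in wild-type mice exceeded those of all 4 globins, namely Slc4a1, Epb42, Rhd, Sptb, Add2, Dmtn, Sox6, Trim10, Btnl10 and Cldn13, whereas in Mirc11-/- mice none did. These ratios are descriptions, and the globins are in the denominator of each. The globins changed by -2.79 to -2.40 on the log2 scale in wild-type mice, so a gene unchanged by challenge also has a ratio above 2. The share of all genes above 2 was not computed. Some of the 35 genes are also made in other cells, so the ratios do not give the composition of erythroid cells alone.

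**Figure D5:**
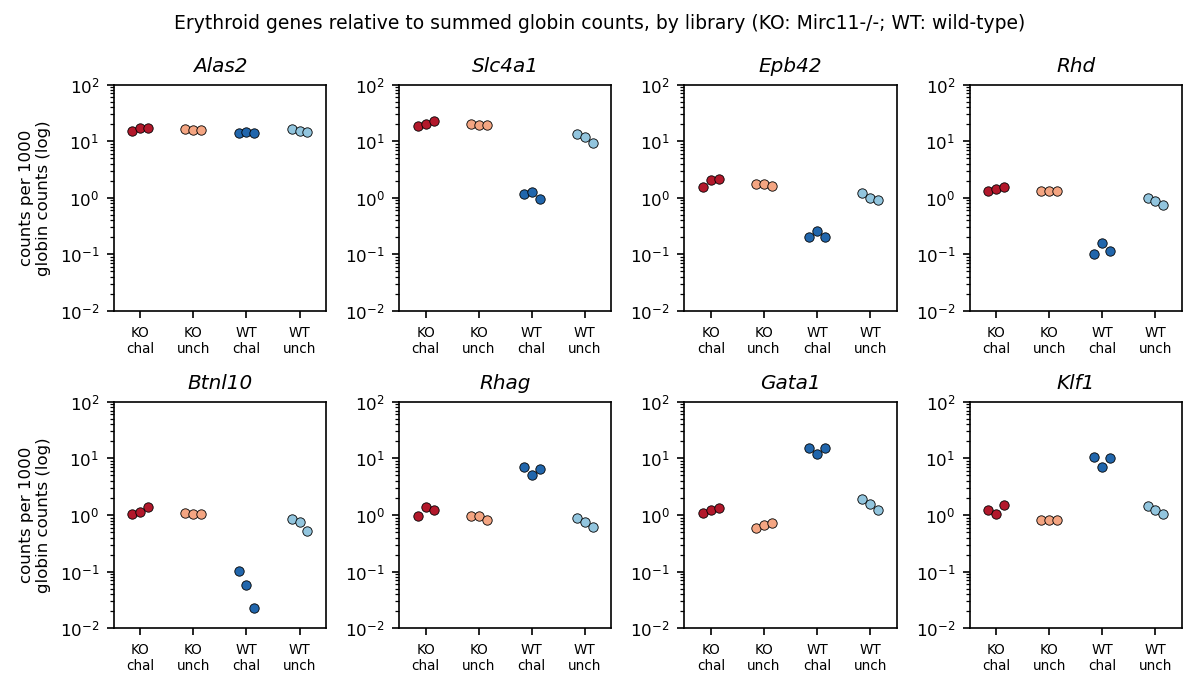
Counts of 8 genes per 1000 globin counts in each of the 12 libraries, on a log axis; KO is Mirc11-/-, WT is wild-type, chal is challenged and unch is unchallenged. Alas2 is level across the groups at 13.9 to 17.2, whereas in challenged wild-type libraries Slc4a1 drops to 0.961 to 1.27 and Gata1 reaches 12 to 15.5.

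Libraries of 1 group differed too, more evenly across the genes in some groups than in others. Of the challenged Mirc11-/- libraries replicate 3 was the highest for 34 of the 39 genes and replicate 2 the lowest for 32. Of the unchallenged Mirc11-/- libraries replicate 4 was the highest for 28. Of the unchallenged wild-type libraries replicate 4 was the lowest for 31, with the membrane genes at a median of 0.80 of the group mean but the globins at 0.97. The challenged wild-type libraries, replicates 1 to 3, were highest for 5, 14 and 20 genes and lowest for 20, 12 and 7, so none stood out for most genes in the same way. Across all 12 libraries, which share 1 preparation protocol, the log2 CPM of Alas2 and of Bpgm each had a Pearson correlation that rounds to 1 with that of the summed globins, whereas Gata1 had -0.17, Tfr2 0.17, Car1 0.23 and Blvrb 0.28. The other regulators had 0.62 (Klf1), 0.75 (Tal1), 0.76 (Epor), 0.86 (Nfe2) and 0.99 (Sox6). Of 11726 other genes with at least 5 CPM in their highest group, the 10 most like the summed globins included Herc1 (0.996), Slc2a4 (0.993), Ranbp10, Apol8, 1300017J02Rik, March8, Cdc25b and Cd209d (0.989).

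Of 17 other genes of heme and iron handling, 2 rose and 6 fell with challenge in Mirc11-/- mice, where 15.6% of all tested genes rose and 11.5% fell. In wild-type mice 5 rose and 4 fell, shares no larger than those of all genes, of which 32.4% rose and 30.9% fell. Alas1, the enzyme that starts heme synthesis outside erythroid cells, had 38.0, 29.0 and 29.0 CPM in challenged Mirc11-/- against 20.6, 23.2 and 22.1 CPM in unchallenged Mirc11-/-, and 49.3, 52.5 and 50.1 CPM in challenged wild-type against 21.3, 21.2 and 22.1 CPM in unchallenged wild-type libraries. It rose by 0.53 ± 0.10 in Mirc11-/- and by 1.34 ± 0.10 in wild-type mice on the log2 scale. Its responses differed by -0.80 ± 0.14 (adjusted p = 0.000465), with the sign opposite to that of Alas2.

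Hmox1, heme oxygenase 1, which degrades heme and also marks red pulp macrophages, rose by 1.49 ± 0.08 in Mirc11-/- and by 2.21 ± 0.09 in wild-type mice. Abcg2, a porphyrin exporter, fell by 0.40 ± 0.08 in Mirc11-/- and by 1.12 ± 0.08 in wild-type mice. Between genotypes 10 of the 17 were higher and none lower in Mirc11-/- without challenge, where 6.64% of all genes were higher and 5.07% lower. With challenge 10 were higher and 4 lower, where 22.7% of all genes were higher and 25.9% lower. Abcb10, a mitochondrial transporter needed for heme synthesis, was higher in Mirc11-/- by 0.92 ± 0.07 without and 0.84 ± 0.07 with challenge.

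Of 28 further genes of the red cell membrane and late maturation, 11 fell and none rose with challenge in Mirc11-/- mice, where 11.5% of all genes fell and 15.6% rose. In wild-type mice 17 fell and 6 rose, where 30.9% of all genes fell and 32.4% rose. Slc14a1, the urea transporter of red cells, averaged 65.1 ± 4.8 CPM in challenged and 86.0 ± 3.7 CPM in unchallenged Mirc11-/- libraries, and 28.1 ± 1.7 CPM in challenged and 88.6 ± 1.8 CPM in unchallenged wild-type libraries. Its responses differed by 1.14 ± 0.09 on the log2 scale (adjusted p = 3.03e-07). Isg20, an interferon-induced nuclease also made by other cells, rose by 2.28 ± 0.09 in wild-type mice, and Gypc, glycophorin C, by 1.13 ± 0.08. In Mirc11-/- mice 22 of the 28 were higher and none lower without challenge, and 23 higher and 4 lower with challenge, where the higher share of all genes was 6.64% and 22.7% and the lower share 5.07% and 25.9%. Slc14a1 was higher in challenged Mirc11-/- by 1.11 ± 0.07, whereas without challenge its difference, -0.03, was not called.

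Of 21 further erythroid regulators and progenitor genes with enough counts, 4 rose and 6 fell with challenge in Mirc11-/- mice, and 11 rose and 6 fell in wild-type mice. Over all genes 15.6% rose and 11.5% fell in Mirc11-/- mice, and 32.4% rose and 30.9% fell in wild-type mice, so the 4 rises in Mirc11-/- and the 6 falls in wild-type mice are near those shares. Gata2, the progenitor factor that GATA1 replaces, rose by 1.07 ± 0.08 in wild-type mice, to 94.7, 94.7 and 109 CPM in challenged libraries, against 51.0, 54.4 and 46.9 CPM in unchallenged libraries. The 3 embryonic globins of the list, Hbb-y, Hbb-bh1 and Hba-x, were among those with too few counts, at group means of 0.0762 CPM or less. Without challenge 4 of the 21 were higher and 2 lower in Mirc11-/-, and with challenge 5 were higher and 8 lower, where 6.64% and 22.7% of all genes were higher and 5.07% and 25.9% lower. Kit, the stem cell factor receptor of progenitors and mast cells, was lower in Mirc11-/- by 0.94 ± 0.06 on the log2 scale without challenge and by 0.76 ± 0.06 with challenge.

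Markers of other cells moved with the same groups, and Gata1, Tal1, Nfe2 and Kit are known in megakaryocytes, basophils or mast cells as well. The 10 megakaryocyte and platelet markers summed to 325 to 369 CPM in challenged Mirc11-/-, 255 to 274 in unchallenged Mirc11-/-, 352 to 410 in challenged wild-type and 508 to 691 CPM in unchallenged wild-type libraries. Of these 10, 5 rose in Mirc11-/- mice, 9 fell and 1 rose in wild-type mice, and 10 were lower in Mirc11-/- without challenge. These and the marker counts that follow are to be read against all genes, of which 15.6% rose and 11.5% fell in Mirc11-/- mice, 32.4% rose and 30.9% fell in wild-type mice, and 5.07% were lower in Mirc11-/- without challenge. The 8 basophil and mast cell markers summed to 283 to 327, 297 to 303, 397 to 410 and 227 to 259 CPM in the same order of groups, and 6 rose and 1 fell in wild-type mice. Kit made up a large part of these sums, averaging 100, 103, 159 and 201 CPM in that order. Without challenge 7 of the 8 were higher in Mirc11-/- and 1, Kit, was lower, where 6.64% of all genes were higher. Their median log2 difference was 2.13, so the sums understate the rise of the markers other than Kit. Of the markers in both lists, none averaged 0 CPM in a group.

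The 9 red pulp macrophage markers summed to 466 to 556 CPM in challenged Mirc11-/-, 246 to 259 in unchallenged Mirc11-/-, 628 to 713 in challenged wild-type and 198 to 229 CPM in unchallenged wild-type libraries. The 8 neutrophil markers summed to 744 to 1169, 421 to 436, 1521 to 1809 and 48.2 to 52.8 CPM in the same order, and the 8 markers of dividing cells to 920 to 967, 654 to 673, 1247 to 1426 and 335 to 436 CPM. The 9 NK markers summed to 4724 to 5453, 6599 to 6906, 3553 to 3658 and 6402 to 7383 CPM, the 8 T cell markers to 264 to 295, 177 to 196, 167 to 173 and 251 to 284 CPM, and the 6 B cell markers to 1281 to 1308, 892 to 911, 1433 to 1514 and 1165 to 1318 CPM. With challenge 7 macrophage, 5 neutrophil, 8 dividing-cell, 8 T cell and 5 B cell markers rose in Mirc11-/- mice, where 8 NK and 3 neutrophil markers fell. In wild-type mice 8 macrophage, 8 neutrophil, 8 dividing-cell, 5 B cell and 1 NK markers rose, and 1 macrophage, 7 NK and 8 T cell markers fell. None of these markers averaged 0 CPM in a group, and the lowest, Ly6g of neutrophils, averaged 0.188 CPM in unchallenged wild-type libraries. The part of these cells in the changes of the erythroid genes was not tested.

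Of the 39 genes, 29 have RefSeq promoter windows, 43 in all, since 8 of them have several starts. The GATA motif was present in at least 1 window of 18 genes (62.1%), against 21% of 27025 genes with windows of the same length. Counted per window it was in 20 of 43 (46.5%), against 18.6% of 32851 windows. CCNCNCCC was present in 25 of the 43 windows (58.1%), against 49.5% of all windows, and both motifs in 7 of the 43 (16.3%), against 5.73% of all. The E-box CAGNTG was present in 21 of the 43 windows (48.8%), against 51.4% of all, and TATAAA in 6 (14%), against 13.6% of all. Both strands were searched, and a match is a stretch of letters, not a bound site.

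A site matching bases 2 to 8 of at least 1 of the 3 microRNAs was present in the longest 3′ UTR of 13 of the 39 genes (33.3%), against 43.4% of 13543 tested genes with a 3′ UTR. The 13 were Uros, Fech, Slc4a1, Epb41, Ermap, Ank1, Add2, Dmtn, Tal1, Sox6, Car2, Tspo2 and Blvrb. Their median log2 difference, Mirc11-/- over wild-type, was 1.25 without challenge and 1.87 with challenge, and that of the genes without a site was 1.48 and 2.83. The direction was not the same for each microRNA. The 6 genes with a miR-24 site had medians of 1.63 and 4.61, against 1.25 and 1.87 without one. For miR-23a they were 1.25 and 1.87 against 1.48 and 2.56, and for miR-27a 1.23 and 1.96 against 1.42 and 2.73.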

How the data were processed

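Whole-number gene counts of 12 libraries of polyA RNA were deposited by the authors as 1 table. Per the submitters' processing notes they used bcl2fastq, Trim Galore 0.4.1, Bowtie2 2.2.8 and RSEM 1.3.0 with GRCm38; annotation release, strand setting and rounding of RSEM estimates: not given in the sources used here. Here, CPM were computed from library totals, and genes passing edgeR's filterByExpr (16694 of 50643) were tested with the quasi-likelihood F test of edgeR 4.0.16 (limma 3.58.1, R 4.3.3) on the counts, with TMM scaling, 1 fit over 4 groups, 5 contrasts and Benjamini-Hochberg adjustment over all tested genes; calls required adjusted p below 0.05. The fit was tested on simulated data in which few genes changed, and only in 1 group. Far more genes were called here, so that test does not check the scaling in these data. The scaling factors of challenged wild-type libraries were below 1 and those of all others above it, so fitted changes differ slightly from ratios of CPM. SE are of the fitted log2 change, and SD are over 3 libraries. Intervals of counts cover counting error only.

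The members, gene lists and named genes were chosen with earlier results of these data known. Per comparison and role, fold changes are named for up to 4 called members with the smallest p (3 for the difference between responses), and values of members whose call changed with a setting were added after their values were seen. Counts of called genes in a list are to be read against the share of all tested genes called in that comparison. The design text calls the replicates biological. Alternatives were DESeq2 1.42.0 size factors and its test, upper-quartile scaling, no filter, only the groups compared, a replicate block, globin copies summed, globins out of library totals, and libraries left out. Exon lengths and coordinates are from GENCODE vM21 (GRCm38), and sequences from RefSeq. Figures were drawn with matplotlib 3.10.9 in Python 3.11.15. A few genes of the lists are counted but not reported by name here.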

Additional observations from a re-analysis of the deposited data

Results flagged for a closer look

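Results are given here where the response to challenge differed between the genotypes by edgeR's quasi-likelihood test of the difference itself. The log2 response was higher in Mirc11-/- than in wild-type mice for 23 of the 39 genes and lower for 4. The difference was 1.78 for Hba-a1, 1.63 for Hbb-bs and 2.13 for Hbb-bt among the globins. It was 1.91 for Alas2, 0.46 for Ppox and 0.84 for Fech among the heme genes, and 5.14 for Slc4a1, 4.12 for Epb42 and 4.63 for Rhd among the membrane genes. It was 3.28 for Sox6, 1.31 for Bpgm, 5.46 for Btnl10 and 2.13 for Ctse. Challenged wild-type libraries were lowest for each of these 13 genes.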

How the results depend on the processing

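The counts of genes called lower or higher in each comparison were recomputed in 21 other fits, 12 of them leaving out 1 library, and 206 of 208 such counts stayed within 1.5 times those reported. The 206 include counts of 0 that stayed 0, as for genes higher with challenge in Mirc11-/- mice and genes lower in Mirc11-/-. They also include the fall from 24 to 16 genes lower with challenge in Mirc11-/- mice, which lies at the limit. The tally is therefore a loose measure of stability. Under upper-quartile scaling 3 of the 39 genes, not 5, rose with challenge in wild-type mice, Alad and Epb41 being lost; this scaling moved the median of all genes there to -0.12. Leaving out 1 library gave 16 to 29 genes lower with challenge in Mirc11-/- mice, 24 to 25 lower and 4 to 6 higher in wild-type mice, 36 higher in Mirc11-/- without challenge, 33 to 35 with challenge, and 22 to 23 higher and 4 to 7 lower responses. The 7 came without challenged Mirc11-/- replicate 3. Over all genes, leaving out 1 library gave 1301 of 17081 to 2329 of 17089 genes lower with challenge in Mirc11-/- mice. Of the named changes none reversed in any of the 21 fits, and those of Urod, Trim10 and Cldn13 with challenge in Mirc11-/- mice were not called in 3 fits each. Named changes are the called ones with the smallest p per role, so this covers only the strongest calls. Calls outside that set were lost more often, that of Slc25a37 in wild-type mice in 12 of the 21 fits. Among all genes, upper-quartile scaling gave 2263 higher and 2583 lower with challenge in Mirc11-/- mice, against 2596 and 1915, and 4634 higher and 6184 lower in wild-type mice, against 5411 and 5166. It gave 4606 higher and 3520 lower in challenged Mirc11-/-, against 3792 and 4332, and 3314 higher and 2680 lower responses, against 2791 and 3085. Same-numbered libraries did not deviate together in all pairs (correlations -0.317 to 0.249). With 3 libraries per group these correlations cannot tell whether libraries of 1 number share a mouse or a day. Whether the numbers mark a pairing is not known. With the replicate block 21 genes were lower with challenge in Mirc11-/- mice, 24 were lower and 5 higher in wild-type mice, 36 and 34 were higher in Mirc11-/- without and with challenge, and 4 responses were lower. Over all genes that fit gave 1185 lower with challenge in Mirc11-/- mice, and 4717 lower and 4997 higher in wild-type mice. It gave 994 and 3594 higher in Mirc11-/- without and with challenge, and 2882 lower responses. Depth limits the lowest value, that of Btnl10 in challenged wild-type libraries, which rests on 8 counts. In the same libraries Rhd rests on 17 counts and Cldn13 on 19.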
